A study of Homo sapiens with 47 samples.

Results

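The Hippo pathway restrains growth through kinases, LATS1 and LATS2 among them, that phosphorylate the coactivators YAP1 and TAZ (the product of WWTR1) and keep them out of the nucleus. When the kinases are quiet, YAP1 and TAZ enter the nucleus and switch on genes through the DNA-binding TEAD factors. CCN1, CCN2 and ANKRD1 are the targets most used as a readout, and AMOTL2, AJUBA and LATS2 are both regulators of the pathway and genes that YAP1 and TAZ switch on. FRMD6 is an upstream protein of the FERM family that is linked to activation of the kinases.

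The 10 genes described here were taken as a fixed list of symbols from the 62703 gene identifiers measured. They are YAP1, WWTR1 and TEAD1 (the coactivators and their DNA-binding partner), LATS2, FRMD6, AMOTL2 and AJUBA (regulators), and CCN1, CCN2 and ANKRD1 (targets). The list thus holds regulators as well as targets. Members were chosen by symbol with the RNA fold changes of both lines against the empty vector known, so the RNA changes of its members are given as a description, with no p-value.

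The study used PC3, an established cell line from a metastasis of human prostate cancer. Cells overexpressing DDC, the decarboxylase that completes serotonin synthesis, and cells overexpressing SLC6A4, the plasma membrane serotonin transporter, were set against cells carrying the empty vector. Of 47 samples, RNA sequencing covered 9, 3 of each line, and chromatin immunoprecipitation (ChIP) covered 27, 3 of each line for each of H3K4me3, H3K4me3Q5ser and input. The other 11 were CUT&Tag samples, of which deposited values for 3 were used: SLC6A4 cells with and without a short hairpin RNA against TGM2, and their control, 1 library each. H3K4me3 is the trimethylated lysine found at active gene starts, and H3K4me3Q5ser is the same tail with serotonin joined to the neighbouring glutamine, a bond that the transglutaminase TGM2 can form. The labels do not say whether libraries of a group came from separate cultures or clones, so the spread measured between them may be technical. They also do not name the promoter that drove either transgene.

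RNA libraries held 17284019 to 21745703 reads in genes. Reads of the overexpressed genes followed the labels: DDC averaged 27.4 ± 3.47 normalised reads in DDC cells against 0.288 ± 0.499 in empty-vector cells, and SLC6A4 averaged 108.6 ± 21.05 in SLC6A4 cells against 0.288 ± 0.499 in empty-vector cells (SD, n = 3 each). TGM2 fell in DDC cells (log2 -0.49, SE 0.11, limma adjusted p = 0.0026) and was higher in SLC6A4 cells by 0.73 (SE 0.05, limma adjusted p = 6.99e-09). The epithelial keratin KRT8 averaged 4447 normalised reads in DDC cells, 7331 in SLC6A4 cells and 6697 in empty-vector cells. Its partner KRT18 fell in both lines, by 0.46 on the log2 scale in DDC cells and by 0.69 in SLC6A4 cells (limma adjusted p = 0.0144 and adjusted p = 0.0037), and averaged 3475, 3011 and 4885 reads in DDC, SLC6A4 and empty-vector cells. KLK3, CD3E and DCN, markers of luminal prostate, T cells and fibroblasts, had no read in any library. Epithelial CDH1 fell in both lines, with log2 fold changes of -3.54 in DDC cells and -1.17 in SLC6A4 cells. EPCAM fell by 1.91 in DDC cells and by 0.43 in SLC6A4 cells. COL1A1, a fibroblast collagen, fell by 1.64 in DDC cells and by 0.99 in SLC6A4 cells, and the endothelial marker PECAM1 fell by 1.49 and by 2.34 in the same lines, all past the limma threshold. The part of these shifts in the values below was not tested. In bulk samples, fewer cells that express a gene and less RNA per cell cannot be told apart.

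TEAD factors bind the letters GGAATG, so the DNA just upstream of the start is printed for the members that hold this motif there. RefSeq promoter sequence (GRCh38.p14) was matched for 7 of the 10 genes, all but CCN1, TEAD1 and FRMD6. The 250 bases before the start were searched on both strands, where the motif reads GGAATG or CATTCC. The motif was in 4 of the 7, and in 11.9% of all 34935 RefSeq promoters over the same length. Each sequence runs 5′ to 3′ on the gene's strand and ends at the base before the start, with the motif in capitals.
CCN2, chr6:131951373-131951622, minus strand: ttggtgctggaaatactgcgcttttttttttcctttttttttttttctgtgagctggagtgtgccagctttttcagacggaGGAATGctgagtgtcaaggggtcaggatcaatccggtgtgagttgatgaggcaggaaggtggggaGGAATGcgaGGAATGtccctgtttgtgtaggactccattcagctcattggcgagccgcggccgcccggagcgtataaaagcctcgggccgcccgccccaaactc
ANKRD1, chr10:90921088-90921337, minus strand: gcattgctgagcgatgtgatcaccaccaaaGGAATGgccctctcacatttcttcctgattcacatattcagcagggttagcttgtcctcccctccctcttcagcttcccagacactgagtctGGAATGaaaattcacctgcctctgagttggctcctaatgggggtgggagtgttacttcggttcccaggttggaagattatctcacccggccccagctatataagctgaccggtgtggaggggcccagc
AMOTL2, chr3:134374448-134374697, minus strand: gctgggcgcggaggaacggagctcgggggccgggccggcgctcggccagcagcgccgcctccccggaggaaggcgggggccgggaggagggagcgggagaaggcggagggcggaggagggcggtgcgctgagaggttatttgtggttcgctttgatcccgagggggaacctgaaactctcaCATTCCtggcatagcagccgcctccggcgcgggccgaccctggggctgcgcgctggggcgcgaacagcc
YAP1, chr11:102110197-102110446, plus strand: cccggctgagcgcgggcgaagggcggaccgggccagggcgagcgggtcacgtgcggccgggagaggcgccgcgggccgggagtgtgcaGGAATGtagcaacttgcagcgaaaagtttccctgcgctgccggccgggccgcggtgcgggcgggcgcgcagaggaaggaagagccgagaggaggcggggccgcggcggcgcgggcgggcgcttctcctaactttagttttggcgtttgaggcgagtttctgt
CCN2 held 3 copies, a number reached by 0.083% of RefSeq promoters, and ANKRD1 held 2, reached by 0.942%. AMOTL2 and YAP1 held 1 each. ANKRD1 also held TGATTCA, a match to TGANTCA, the loose AP-1 pattern searched here with any base at N (found in 6.59% of promoters). It was the only one of the 7 to do so, and none held a CArG box, the site of serum response factor (1.17% of promoters). WWTR1, LATS2 and AJUBA held none of the 3 motifs in this window. A match of letters is a description and says nothing of binding.

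The targets CCN1, CCN2 and ANKRD1 were higher in SLC6A4 cells than in empty-vector cells, while in DDC cells CCN1 alone was higher. Values here are reads divided by size factors shared by all 9 libraries. CCN1 (ENSG00000142871, chromosome 1: 85580761 to 85583950, GRCh38), a secreted matricellular protein that binds integrins, had 223, 229 and 223 normalised reads in DDC libraries, 458, 434 and 408 in SLC6A4 libraries, and 156, 110.0 and 159 in empty-vector libraries. The groups did not overlap, with SLC6A4 cells highest and DDC cells between. The log2 fold change of CCN1 was 0.69 (SE 0.13) in DDC cells and 1.62 (SE 0.12) in SLC6A4 cells, each against the same empty-vector libraries.

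CCN2 (ENSG00000118523, chromosome 6: 131948176 to 131951372), the related connective tissue growth factor, was far less abundant. It had 22.9, 17.6 and 28.8 normalised reads in DDC libraries, 51.2, 34.5 and 42.8 in SLC6A4 libraries, and 30.9, 23.96 and 18.1 in empty-vector libraries. All SLC6A4 libraries lay above all others, and DDC and empty-vector libraries overlapped. The log2 fold change was -0.06 (SE 0.27) in DDC cells and 0.81 (SE 0.23) in SLC6A4 cells. With DESeq2 on the recovered reads, or without empty-vector replicate 3 or SLC6A4 replicates 1 or 3, CCN2 did not pass in SLC6A4 cells, with log2 fold changes of 0.82, 0.62, 0.67 and 0.80.

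ANKRD1 (ENSG00000148677, chromosome 10: 90912096 to 90921087), a nuclear ankyrin repeat protein of muscle and stressed cells, had 8.31, 6.60 and 5.97 normalised reads in DDC libraries, 39.1, 24.5 and 40.9 in SLC6A4 libraries, and 9.26, 9.80 and 6.91 in empty-vector libraries. DDC and empty-vector libraries overlapped at a low level, and ANKRD1 was higher in SLC6A4 cells, where its mean was 4.02 times that of empty-vector cells. Its log2 fold change there was 1.87 (SE 0.29), or 1.53 with 5 in place of 1 added before the logarithm. The gene passed the filter, 10 normalised reads in at least 3 libraries, with its 3 SLC6A4 libraries and 1 empty-vector library, so it was tested because it was high in SLC6A4 cells, and it did not pass the filter in the DDC comparison.

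**Figure D1:**
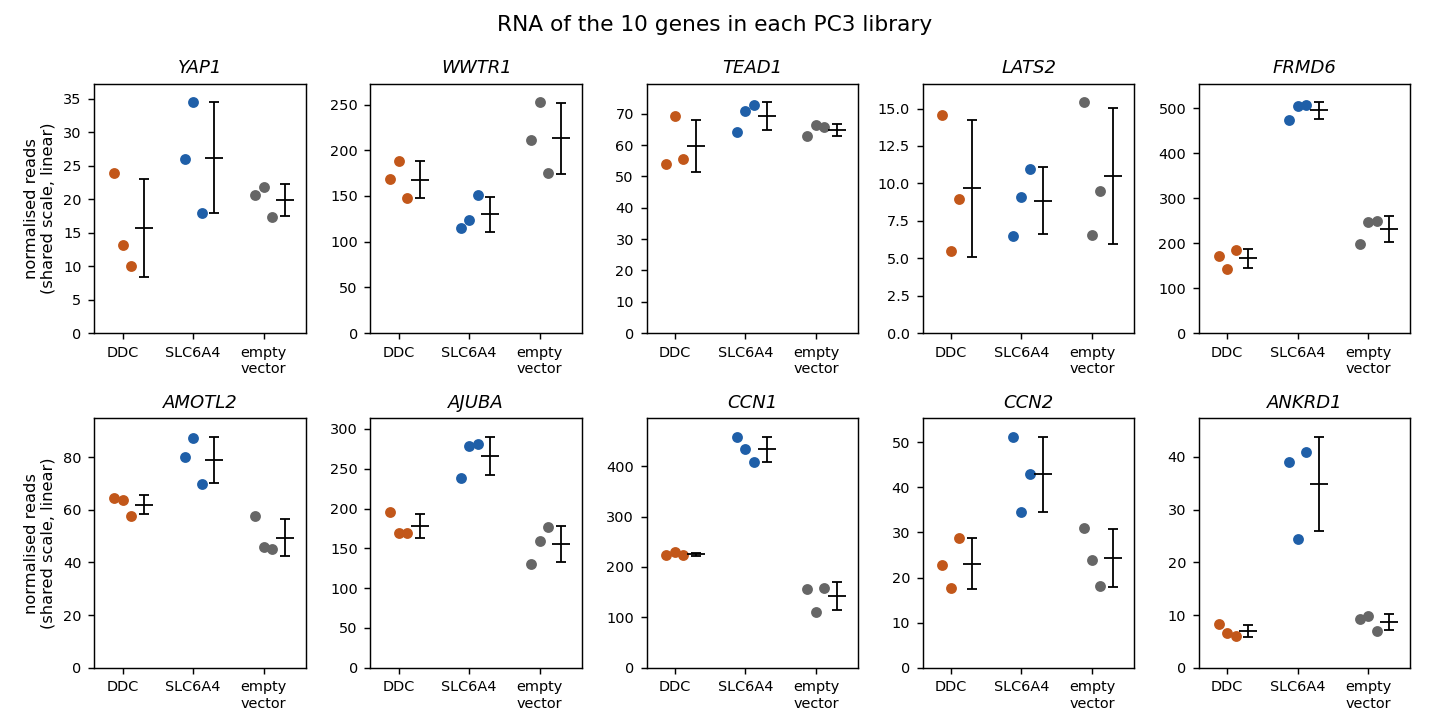
Normalised reads on the scale shared by all 9 RNA libraries (linear axes from 0), with 1 panel per gene. Coloured points are libraries of DDC, SLC6A4 and empty-vector cells, and black bars are the mean ± SD of 3 libraries; CCN1, CCN2, ANKRD1, FRMD6, AMOTL2 and AJUBA have all SLC6A4 points above all empty-vector points.

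Among the regulators, FRMD6 moved in opposite directions in the DDC and SLC6A4 cells. FRMD6 (ENSG00000139926, chromosome 14: 51651910 to 51730727) had 170.4, 143 and 185 normalised reads in DDC libraries, 473, 505 and 506 in SLC6A4 libraries, and 199, 246 and 249 in empty-vector libraries. Every DDC library lay below, and every SLC6A4 library above, every empty-vector library. Lines on opposite sides of the empty vector, either way round, were found in 1.56% of 12939 genes tested in both comparisons and in 1 of the 8 members among them. The log2 fold change was -0.47 (SE 0.13) in DDC cells and 1.10 (SE 0.09) in SLC6A4 cells. The DDC value passed the threshold with all libraries and not without empty-vector replicates 2 or 3 or DDC replicate 2, where it was -0.42, -0.41 and -0.37.

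AJUBA (ENSG00000129474, chromosome 14: 22971177 to 22982551), a LIM-domain scaffold that binds LATS kinases, had 195, 169 and 169 normalised reads in DDC libraries, 238, 279 and 281 in SLC6A4 libraries, and 131, 159 and 176 in empty-vector libraries. SLC6A4 libraries were the highest, and DDC and empty-vector libraries overlapped. AJUBA changed by 0.21 (SE 0.13) in DDC cells and by 0.78 (SE 0.12) in SLC6A4 cells on the log2 scale. AMOTL2 (ENSG00000114019, chromosome 3: 134355347 to 134374447), an angiomotin that holds YAP1 at junctions, had 64.4, 63.8 and 57.7 normalised reads in DDC libraries, 80.0, 87.1 and 69.7 in SLC6A4 libraries, and 57.6, 45.7 and 44.9 in empty-vector libraries. The lowest DDC library and the highest empty-vector library nearly met, and the SLC6A4 libraries lay above both groups. The log2 fold change of AMOTL2 was 0.33 (SE 0.18) in DDC cells and 0.67 (SE 0.16) in SLC6A4 cells.

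YAP1, WWTR1 and TEAD1 were not past the threshold as higher in either line. WWTR1 (ENSG00000018408, chromosome 3: 149517235 to 149658025) had 168, 188 and 147 normalised reads in DDC libraries, 114, 123 and 151 in SLC6A4 libraries, and 211, 253 and 175 in empty-vector libraries. SLC6A4 libraries lay below every empty-vector library, while DDC libraries overlapped them. The log2 fold change of WWTR1 was -0.33 (SE 0.13) in DDC cells and -0.70 (SE 0.14) in SLC6A4 cells. The DDC value did not pass the threshold, and passed as lower with scaling by library size alone or without empty-vector replicate 3 (-0.46 in each). YAP1 (ENSG00000137693, chromosome 11: 102110447 to 102233424) had few reads, 9.95 to 23.9 in DDC libraries, 17.9 to 34.5 in SLC6A4 libraries and 17.3 to 21.8 in empty-vector libraries, and the groups overlapped. Its log2 fold change was -0.40 (SE 0.32) in DDC cells and 0.34 (SE 0.27) in SLC6A4 cells. TEAD1 (ENSG00000187079, chromosome 11: 12674421 to 12944737) had 54.0 to 69.3 normalised reads in DDC libraries, 64.2 to 72.7 in SLC6A4 libraries and 62.8 to 66.4 in empty-vector libraries, with overlap throughout and log2 fold changes of -0.12 (SE 0.17) and 0.09 (SE 0.14). LATS2 (ENSG00000150457, chromosome 13: 20973036 to 21061586) had 5.50 to 14.5 normalised reads in DDC libraries, 6.51 to 10.96 in SLC6A4 libraries and 6.53 to 15.4 in empty-vector libraries, and passed the filter in neither comparison with the empty vector. Its groups overlapped, and at this depth a small difference in LATS2 could not be told from the spread between libraries.

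Counted together, 2 of the 8 members tested in DDC cells were past an adjusted p of 0.05 in limma, CCN1 higher and FRMD6 lower, where 17.4% of all 13146 genes tested were, 8.94% higher and 8.41% lower. In SLC6A4 cells 7 of 9 were past it, 6 higher and WWTR1 lower, where 19.4% of all 13264 genes were, 10.2% higher and 9.28% lower. The list was chosen with these contrasts known, so nothing follows from those shares. Median log2 fold changes were -0.09 over the members and 0.0067 over all genes tested in DDC cells, and 0.78 over the members and 0.0052 over all genes in SLC6A4 cells. The SLC6A4 count and median include ANKRD1, which passed the filter through its high SLC6A4 libraries and was not tested in DDC cells. The member medians of the lines thus cover unlike sets. Libraries did not overlap for 3 of the 8 members tested in DDC cells and 7 of the 9 tested in SLC6A4 cells, against 33.3% and 34.9% of all genes tested. Members below the filter, LATS2 in each line and ANKRD1 in DDC cells, had overlapping libraries.

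Directly between the lines, on the scale shared by the 9 libraries, DDC cells had lower values than SLC6A4 cells for 8 of 10 members. The differences (DDC minus SLC6A4, log2) were largest for ANKRD1, at -2.15 (SE 0.32), and FRMD6, at -1.58 (SE 0.11). They were -0.94 (SE 0.12) for CCN1, -0.87 (SE 0.25) for CCN2, -0.74 (SE 0.31) for YAP1, -0.58 (SE 0.12) for AJUBA, -0.34 (SE 0.16) for AMOTL2 and -0.22 (SE 0.15) for TEAD1. WWTR1 was higher in DDC cells by 0.37 (SE 0.14), and LATS2 differed by 0.05 (SE 0.40). Of the 10, 5 were past the limma threshold, all lower, against 13.2% of all 13544 genes tested (6.74% lower), a share from which nothing is read for the same reason. CCN2 was no longer past it without DDC replicate 2 or SLC6A4 replicates 1 or 3 (-0.70, -0.74 and -0.86). YAP1 was past it without DDC replicate 1 (-1.08), and WWTR1 without DDC replicate 3 or SLC6A4 replicate 3 (0.46 and 0.49). ANKRD1 fell below the filter when any of the 3 SLC6A4 libraries was left out.

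**Figure D2:**
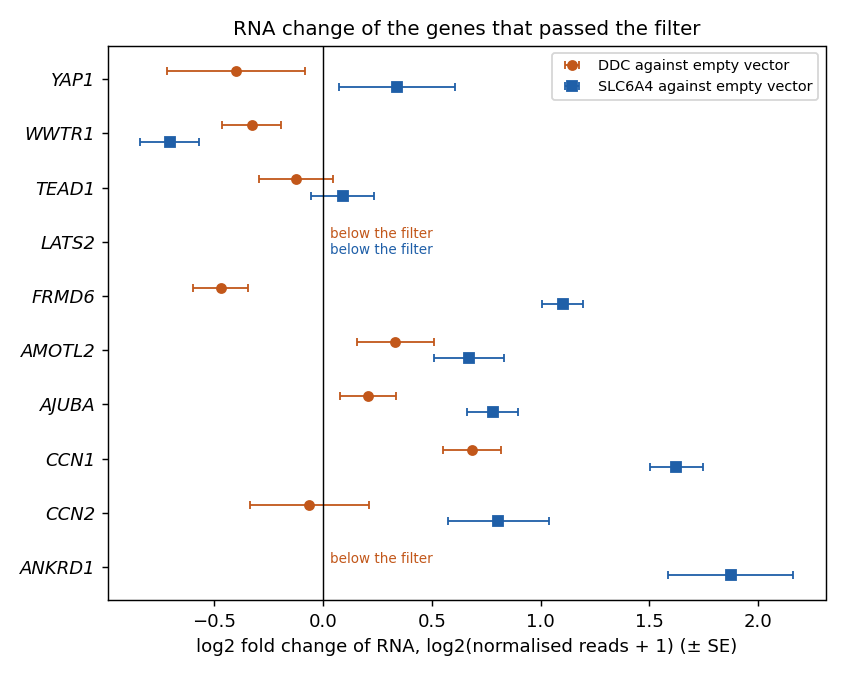
Log2 fold change of RNA (± SE) for each gene in DDC cells (circles) and SLC6A4 cells (squares), each against the same 3 empty-vector libraries. FRMD6 lies left of 0 in DDC cells (-0.47) and right of 0 in SLC6A4 cells (1.10); LATS2, and ANKRD1 in DDC cells, were below the filter.

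Compared per length of exon (RPKM, reads scaled by exon length and library size), CCN1 was the most abundant member in every line, at 2.97 ± 0.162 in DDC cells, 6.06 ± 0.393 in SLC6A4 cells and 2.04 ± 0.403 in empty-vector cells (SD, n = 3 each). AJUBA came next in empty-vector cells at 1.40 ± 0.245 RPKM, then WWTR1 at 1.35 ± 0.235 and FRMD6 at 1.31 ± 0.190, levels that do not differ beyond their spread. CCN2 stood at 0.550 ± 0.129 RPKM, AMOTL2 at 0.404 ± 0.0475 and TEAD1 at 0.322 ± 0.0173 in the same cells. ANKRD1 (0.256 ± 0.0412 RPKM), YAP1 (0.167 ± 0.0170 RPKM) and LATS2 (0.0987 ± 0.0404 RPKM) were the lowest. In SLC6A4 cells FRMD6 came after CCN1 at 2.72 ± 0.0951 RPKM followed by AJUBA at 2.34 ± 0.205, and WWTR1 stood at 0.804 ± 0.113. In DDC cells AJUBA came after CCN1 at 1.48 ± 0.192 RPKM, then WWTR1 at 0.984 ± 0.151 and FRMD6 at 0.860 ± 0.0984. Exons of other annotated genes overlap those of 5 members. On the opposite strand, WWTR1-AS1 shares 756 bases with WWTR1 and averaged 13.9 reads a library, LINC01013 shares 278 with CCN2 and averaged 2.89, and ENSG00000254422 shares 628 with YAP1 and averaged 4.44, beside 10 to 38 reads of YAP1. On the same strand, RPL39P5 shares 187 bases with AMOTL2 and averaged 9.44 reads, and ENSG00000259132 shares 50 with AJUBA and averaged 20.4. No strand setting of the count is given in the sources used here, so reads on shared bases cannot be told apart.

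The rest of the pathway was taken from lists chosen with earlier results of these data known, and most of its genes passed in neither direction. The shares of all genes called, 17.4% in DDC cells and 19.4% in SLC6A4 cells, are the background to each count below, and most of these lists are too short to be set apart from it. Of 13 Hippo kinases and activators tested, 1 rose and 2 fell in DDC cells, and 2 rose and 1 fell in SLC6A4 cells. The kinase MAP4K4, which phosphorylates LATS, fell in both lines, by 0.48 on the log2 scale in DDC cells and by 0.89 in SLC6A4 cells (limma adjusted p = 0.000474 and adjusted p = 8.28e-08). NF2, the merlin scaffold of the kinases, rose in both, by 0.38 in DDC cells and by 0.54 in SLC6A4 cells (limma adjusted p = 0.0066 and adjusted p = 3.79e-06). The LATS cofactor MOB1A fell by 0.38 in DDC cells (limma adjusted p = 0.0109), and WWC1, known as KIBRA, rose by 0.80 in SLC6A4 cells (limma adjusted p = 0.000842). LATS1 changed by -0.01 (SE 0.35) in DDC cells and by -0.39 (SE 0.36) in SLC6A4 cells (limma adjusted p = 0.985 and adjusted p = 0.504). Since the lines share their empty-vector libraries, a like change in both is not independent evidence.

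Of 7 junction and scaffold genes tested, none passed in DDC cells, where the tight junction scaffold TJP1 changed by -0.40 (SE 0.14, limma adjusted p = 0.0524). In SLC6A4 cells the polarity scaffold PALS1 rose by 0.54 (limma adjusted p = 0.0012). Of 4 TEAD factors and VGLL cofactors tested, none passed in DDC cells, and VGLL4, a cofactor that competes with YAP1 for TEAD, fell by 0.56 in SLC6A4 cells (limma adjusted p = 0.0081). TEAD4 changed by -0.06 in DDC cells and by 0.42 in SLC6A4 cells (limma adjusted p = 0.887 and adjusted p = 0.156).

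Other genes known as conserved YAP and TAZ targets were mixed. In DDC cells 3 of 14 rose and 3 fell, and in SLC6A4 cells 3 of 16 rose and none fell, where 8.94% of all genes rose and 8.41% fell in DDC cells, and 10.2% rose and 9.28% fell in SLC6A4 cells. With scaling by library size alone, 4 of 14 fell in DDC cells and 1 of 16 in SLC6A4 cells. The receptor kinase AXL rose in both lines, by 0.87 in DDC cells and by 1.36 in SLC6A4 cells (limma adjusted p = 1.5e-06 and adjusted p = 1.56e-12), and so did the stress gene GADD45A, by 0.87 in DDC cells and by 1.13 in SLC6A4 cells (limma adjusted p = 0.000628 and adjusted p = 5.67e-05). NUAK2, a kinase of the AMPK family, rose by 1.20 in DDC cells (limma adjusted p = 0.007), and ASAP1 rose by 0.57 in SLC6A4 cells (limma adjusted p = 0.000318). IGFBP3, which binds insulin-like growth factors, fell by 1.61 in DDC cells (limma adjusted p = 2.19e-06), with CRIM1 and TGFB2 down by 0.85 and by 0.83 (limma adjusted p = 0.0055 and adjusted p = 0.0052). The median log2 fold change of the list was -0.02 in DDC cells and 0.04 in SLC6A4 cells. Set directly against SLC6A4 cells, DDC cells had 6 of 16 lower and none higher, where 6.74% of all genes were lower and 6.47% higher. Among the 6 were IGFBP3 (log2 -1.20, limma adjusted p = 7.43e-05), ASAP1 (log2 -0.60, limma adjusted p = 0.00047) and AXL (log2 -0.50, limma adjusted p = 0.00083). The list's median was -0.37 in that comparison, and 0.0015 over all genes tested.

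Of the serum response factor and actin genes, 2 of 8 fell in DDC cells, TPM1 by 0.78 and ACTG2 by 1.55 (limma adjusted p = 0.000226 and adjusted p = 0.0135). In SLC6A4 cells 1 of 9 rose, SRF itself, by 0.56 (limma adjusted p = 0.0095). Of 5 AP-1 subunits, FOS fell by 2.37 in DDC cells and by 2.14 in SLC6A4 cells (limma adjusted p = 0.000532 and adjusted p = 0.000897), and FOSL1 rose by 0.51 in DDC cells and by 0.36 in SLC6A4 cells (limma adjusted p = 0.000132 and adjusted p = 0.000856). CCN3 was the only other CCN family gene to pass the filter, and it passed the test in neither line.

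The genes whose pattern over the 9 RNA libraries lay nearest to the targets were sought by the root mean square difference of log2 values centred on each gene's mean, among 12167 genes. For CCN1 they were ACAT2 (0.174), BIRC3 (0.185) and GPR176 (0.196). For CCN2 they were FEM1B (0.176), FGF1 (0.193) and RNA5SP392 (0.217), and for ANKRD1 they were PLAT (0.317), SCG5 (0.382) and SNAPC1 (0.389). None is a member or on a pathway list.

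ChIP reads were counted by the authors over 19535 regions (median length 4023 bp), and 9 members have such a region within 1000 bp of their start. ANKRD1 has none, nor any deposited peak within 5000 bp. The regions of the members run from 4318 bp at LATS2 to 13725 bp at AJUBA, so they reach beyond the promoter. Those of YAP1 (12444 bp), FRMD6 (12637 bp) and AJUBA are longer than 93.2%, 93.5% and 95.2% of all regions. H3K4me3Q5ser libraries held 13511040 to 24765380 read pairs in regions and H3K4me3 libraries 3429714 to 5811116, so each value of H3K4me3 rests on fewer reads. The regions of WWTR1, AJUBA and CCN2 also hold the starts of WWTR1-AS1, AJUBA-DT and LINC01013. Those of YAP1, AJUBA and CCN1 also hold starts of genes without a symbol. In empty-vector cells H3K4me3Q5ser was densest at FRMD6, 28.5 CPM (read pairs scaled by library size) per kilobase, above 99.4% of regions, then at WWTR1 (19.97, above 97.5%), TEAD1 (14.996) and YAP1 (14.5). It was lowest at CCN2 (5.64 CPM per kilobase, above 40.02% of regions). H3K4me3 was also densest at FRMD6 (32.1 CPM per kilobase, above 98.1%). Input was highest at FRMD6 as well, at 307 CPM in empty-vector cells, and the order changed once input was taken into account. The log2 ratio of H3K4me3Q5ser to input in empty-vector cells was highest at AMOTL2 (0.62, above 95.01% of regions), then at WWTR1 (0.48, above 91.0%) and LATS2 (0.35, above 85.9%). It was 0.23 at FRMD6 (above 79.5%) and lowest at CCN2 (-0.35, above 49.5%). The median ratio over all regions was -0.34 for H3K4me3Q5ser and -0.04 for H3K4me3. Mark and input were each scaled to reads in regions, so a ratio below 0 does not mean less signal than input. For H3K4me3 the ratio to input was 0.40 at FRMD6 (above 83.5%), behind AMOTL2 (0.44) and YAP1 (0.43).

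A shorter H3K4me3 peak lay within 1000 bp of the start of 8 members, but not of LATS2 or ANKRD1. LATS2 has 1 such peak of 269 bp within 5000 bp. CCN2 has 1 of 429 bp within 1000 bp, and FRMD6 has 2 that cover 5772 bp. All 9 regions are also on the authors' list of H3K4me3Q5ser regions that they call overlapped. That list is long, with 12439 entries (median length 6741 bp) beside 19535 regions in all (median length 4023 bp).

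In SLC6A4 cells H3K4me3Q5ser rose at 5 of the 9 regions and fell at 3, and CCN2 did not pass. AMOTL2 (chr3:134370998-134376022) had 65.1, 61.8 and 59.5 CPM in SLC6A4 libraries against 39.7, 40.3 and 40.1 in empty-vector libraries, a log2 fold change of 0.63 (SE 0.04, edgeR adjusted p = 2.89e-33). LATS2 (chr13:21057796-21062113) had 51.3, 50.8 and 50.2 CPM in SLC6A4 libraries against 35.2, 34.3 and 35.0 in empty-vector libraries (log2 0.54, SE 0.04, edgeR adjusted p = 4.12e-26). AJUBA (chr14:22973811-22987535) had 186, 187 and 189 CPM in SLC6A4 libraries against 136, 136 and 139 in empty-vector libraries (log2 0.45, SE 0.02, edgeR adjusted p = 8.95e-41). None of these groups overlapped. CCN1 (chr1:85575017-85585748) rose by 0.19 (SE 0.02, edgeR adjusted p = 3.12e-13) and WWTR1 (chr3:149652676-149661658) by 0.14 (SE 0.02, edgeR adjusted p = 7.72e-10).

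At YAP1 (chr11:102106315-102118758) the mark fell to 142, 139.995 and 141 CPM in SLC6A4 libraries, against 178, 183 and 178 in empty-vector libraries (log2 -0.35, SE 0.02, edgeR adjusted p = 7.12e-31). TEAD1 (chr11:12671335-12681124) fell by 0.24 (SE 0.02, edgeR adjusted p = 7.08e-18) and FRMD6 (chr14:51646385-51659021) by 0.18 (SE 0.01, edgeR adjusted p = 5.05e-24). CCN2 (chr6:131948118-131953035) changed by -0.05 (SE 0.05, edgeR adjusted p = 0.311), and passed as lower with scaling by reads in regions alone (-0.11, edgeR adjusted p = 0.0345). Calls were common in this comparison: 82.5% of all 19535 regions passed, 41.0% higher and 41.5% lower, so 8 of 9 is near the background.

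H3K4me3 itself fell at 5 of the 9 regions and rose at 2 in SLC6A4 cells, where 61.5% of 18972 regions passed, 29.6% lower and 31.9% higher. YAP1 had 154, 147 and 150.1 CPM in SLC6A4 libraries against 234, 212 and 229.6 in empty-vector libraries, a fall of 0.58 on the log2 scale (SE 0.04, edgeR adjusted p = 2.32e-42). TEAD1 fell by 0.49 (SE 0.05, edgeR adjusted p = 2.54e-23) and FRMD6 by 0.45 (SE 0.03, edgeR adjusted p = 1.35e-47). CCN2 fell by 0.33 (SE 0.10, edgeR adjusted p = 0.0012) and CCN1 by 0.18 (SE 0.05, edgeR adjusted p = 0.000939). AMOTL2 rose by 0.25 (SE 0.09, edgeR adjusted p = 0.0095) and AJUBA by 0.15 (SE 0.05, edgeR adjusted p = 0.0052), and neither passed with DESeq2 (log2 0.23 and 0.14, adjusted p = 0.0828 and adjusted p = 0.0722). Leaving out empty-vector replicate 3 also ended both calls (log2 0.20 and 0.12), as did empty-vector replicate 2 or SLC6A4 replicate 3 for AMOTL2 (log2 0.22 and 0.19). WWTR1 changed by 0.02 (SE 0.04) and LATS2 by 0.000298 (SE 0.10).

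The RNA and the marks did not always move together in SLC6A4 cells. FRMD6 had more RNA (log2 1.10) with less of both marks in ChIP, and CCN2 had more RNA (log2 0.81) with less H3K4me3. At the FRMD6 peaks with CUT&Tag values, given below, H3K4me3 was not lower in SLC6A4 cells than in control cells (1 library each). CCN1 had more RNA (log2 1.62) with more H3K4me3Q5ser (log2 0.19) and less H3K4me3 (log2 -0.18). WWTR1 had less RNA (log2 -0.70) with more H3K4me3Q5ser. At AMOTL2 and AJUBA the RNA and both marks were higher, and at LATS2 H3K4me3Q5ser was higher while its RNA stayed at 6.51 to 10.96 normalised reads. ANKRD1 has no region to compare. Its log2 RNA change in SLC6A4 cells was the largest of the members with 1 added before the logarithm (1.87, against 1.62 for CCN1), and with 5 added that of CCN1 was larger (1.60, against 1.53 for ANKRD1).

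In DDC cells H3K4me3Q5ser changed by at most 0.28 on the log2 scale at these regions. It fell at 6 regions and rose at none, where 61.2% of all regions passed and 31.5% fell. YAP1 had 153, 149.9 and 142 CPM in DDC libraries against 178, 183 and 178 in empty-vector libraries (log2 -0.28, SE 0.02, edgeR adjusted p = 6.03e-21). FRMD6 fell by 0.15 (SE 0.01, edgeR adjusted p = 1.24e-15), TEAD1 by 0.14 (SE 0.02, edgeR adjusted p = 7.84e-07), CCN1 by 0.10 (SE 0.03, edgeR adjusted p = 0.000388) and WWTR1 by 0.09 (SE 0.02, edgeR adjusted p = 0.000176). CCN2 fell by 0.14 (SE 0.05, edgeR adjusted p = 0.0154), and not with DESeq2 (adjusted p = 0.0959) or without empty-vector replicate 1 or DDC replicate 1 (edgeR adjusted p = 0.118 and adjusted p = 0.25). LATS2, AMOTL2 and AJUBA changed by 0.04, -0.01 and -0.04 and did not pass. At 3 of the 9 regions, WWTR1, AJUBA and CCN1, all DDC libraries lay below and all SLC6A4 libraries above the empty-vector libraries, where 9.91% of all regions had the lines on opposite sides.

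H3K4me3 fell at 2 regions in DDC cells, where 17.6% of regions passed and 9.39% were lower. YAP1 fell by 0.16 (SE 0.04, edgeR adjusted p = 0.0015). CCN1 fell by 0.14 (SE 0.05, edgeR adjusted p = 0.0483), a call lost when any single DDC or empty-vector library was left out and with DESeq2 (adjusted p = 0.153). The other 7 regions changed by -0.20 (LATS2) to 0.0045 (AMOTL2) and did not pass.

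Of the 9 regions, input passed the test at YAP1 alone, where it was lower in DDC cells, at 128, 132 and 117 CPM in DDC libraries against 178, 167 and 155 in empty-vector libraries (log2 -0.40, SE 0.08, edgeR adjusted p = 3.94e-05), where 6.3% of 18025 regions passed and 3.61% were lower. The other 8 regions had input changes of -0.24 (LATS2) to -0.04 (AMOTL2) that did not pass, all below 0. Among 9384 regions at starts of measured genes, 52.3% had input changes above 0. Input libraries of the DDC and empty-vector cells overlapped at FRMD6, AMOTL2 and CCN2, and the share of all regions with such overlap was not computed. Relative to input, 0 of the 9 regions passed for either mark in DDC cells in edgeR, where 5.51% of 19496 regions passed for H3K4me3Q5ser and 0.649% of 19103 for H3K4me3, so a count of 0 is near the background. In each mark 1 region had an unadjusted p under 0.05, where 3669 of all 19496 regions did for H3K4me3Q5ser and 2265 of 19103 for H3K4me3. YAP1 then changed by 0.15 for H3K4me3Q5ser and by 0.26 for H3K4me3 (edgeR adjusted p = 0.301 and adjusted p = 0.151), the opposite sign to its change without input. Input values of SLC6A4 cells were not analysed here, so the SLC6A4 changes stand without that comparison.

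**Figure D3:**
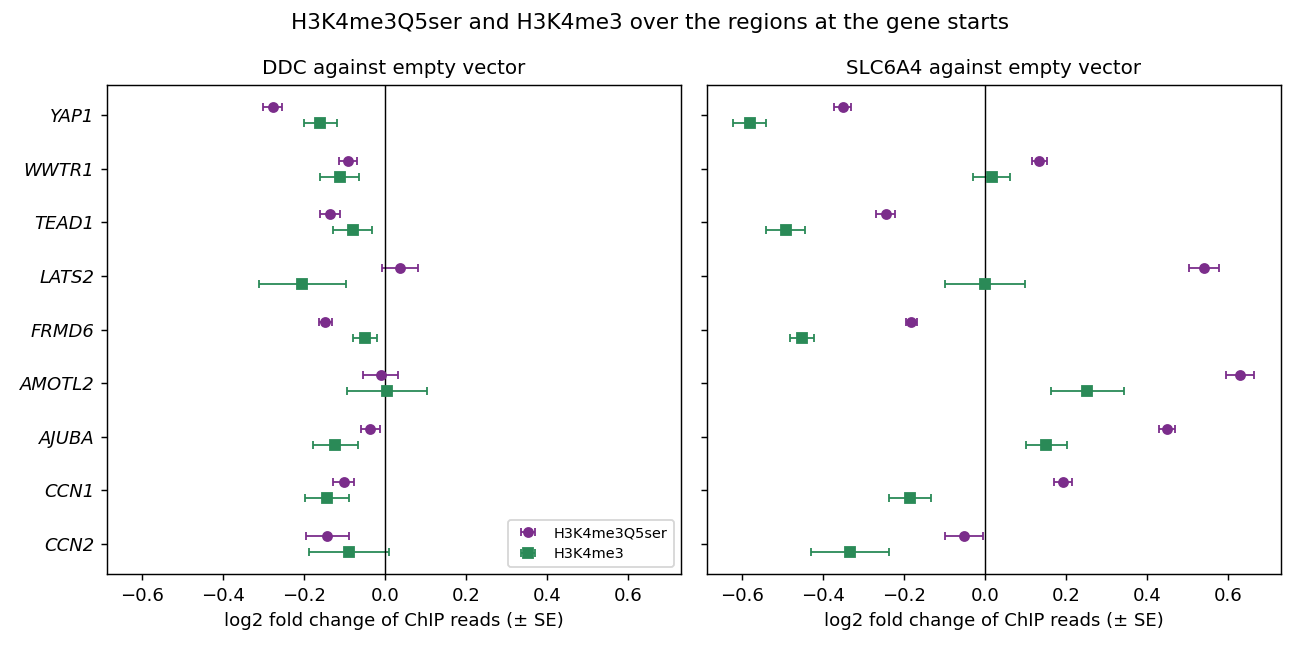
Log2 fold change of ChIP reads (± SE, edgeR) at the 9 regions in DDC cells (left) and SLC6A4 cells (right), for H3K4me3Q5ser (circles) and H3K4me3 (squares). In SLC6A4 cells every circle lies to the right of its square, from 0.12 at WWTR1 to 0.54 at LATS2.

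The design allows the marks to be set against each other at the same region, which asks whether serotonylation changed beyond H3K4me3 itself. In SLC6A4 cells H3K4me3Q5ser rose relative to H3K4me3 at all 9 regions, where 29.2% of 19529 regions passed, 14.5% higher and 14.7% lower. The members were chosen with earlier results of these data known, so that share is not independent of the choice. Among 9540 regions at the starts of genes measured in RNA, 34.5% passed, 25% higher and 9.42% lower. The interaction was largest at LATS2, 0.54 (SE 0.10, edgeR adjusted p = 7.69e-06), at AMOTL2, 0.38 (SE 0.10, edgeR adjusted p = 0.001), and at CCN1, 0.38 (SE 0.06, edgeR adjusted p = 2.96e-09). It was 0.30 at AJUBA (SE 0.05, edgeR adjusted p = 1.38e-06), 0.27 at FRMD6 (SE 0.03, edgeR adjusted p = 1.01e-12), 0.25 at TEAD1 (SE 0.05, edgeR adjusted p = 5.64e-05) and 0.23 at YAP1 (SE 0.05, edgeR adjusted p = 1.92e-05). CCN2 and WWTR1 passed narrowly, at 0.28 (SE 0.11, edgeR adjusted p = 0.0326) and 0.12 (SE 0.05, edgeR adjusted p = 0.047). The median of the 9 was 0.28, against -0.01 over all regions and 0.06 over regions at starts of measured genes.

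The form of this rise differed by gene. At LATS2, AMOTL2, AJUBA and WWTR1 the serotonylated mark rose by more than H3K4me3 changed. At CCN1 it rose while H3K4me3 fell, at CCN2 H3K4me3 fell by 0.33 while the serotonylated mark did not pass, and at YAP1, TEAD1 and FRMD6 both fell with H3K4me3 falling further. With scaling by reads in regions alone, 7 of 9 passed, and WWTR1 (0.03, edgeR adjusted p = 0.664) and CCN2 (0.20, edgeR adjusted p = 0.159) did not. The same scaling left 1428 regions higher and 4661 lower, in place of 2825 and 2880. WWTR1 was also lost without H3K4me3 empty-vector replicates 1 or 3, H3K4me3 SLC6A4 replicates 1 or 3 or H3K4me3Q5ser SLC6A4 replicate 1 (0.10 to 0.12). CCN2 was lost without H3K4me3 empty-vector replicate 3, H3K4me3 SLC6A4 replicates 2 or 3 or H3K4me3Q5ser SLC6A4 replicate 1 (0.21 to 0.29).

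In DDC cells 0 of the 9 interactions passed in edgeR, where 15% of regions did, and DESeq2 also called 0. At an unadjusted p under 0.05 there were 3 in either tool, where 5338 of all 19529 regions were in edgeR and 4782 in DESeq2. In edgeR these were YAP1 (-0.11, SE 0.05), LATS2 (0.25, SE 0.11) and FRMD6 (-0.09, SE 0.03). FRMD6 passed without H3K4me3 empty-vector replicate 2 or H3K4me3 DDC replicate 1 (-0.11 and -0.10, edgeR adjusted p = 0.0431 and adjusted p = 0.0488). Standard errors were largest at LATS2, CCN2 and AMOTL2 (0.11 each), the regions with the fewest reads.

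**Figure D4:**
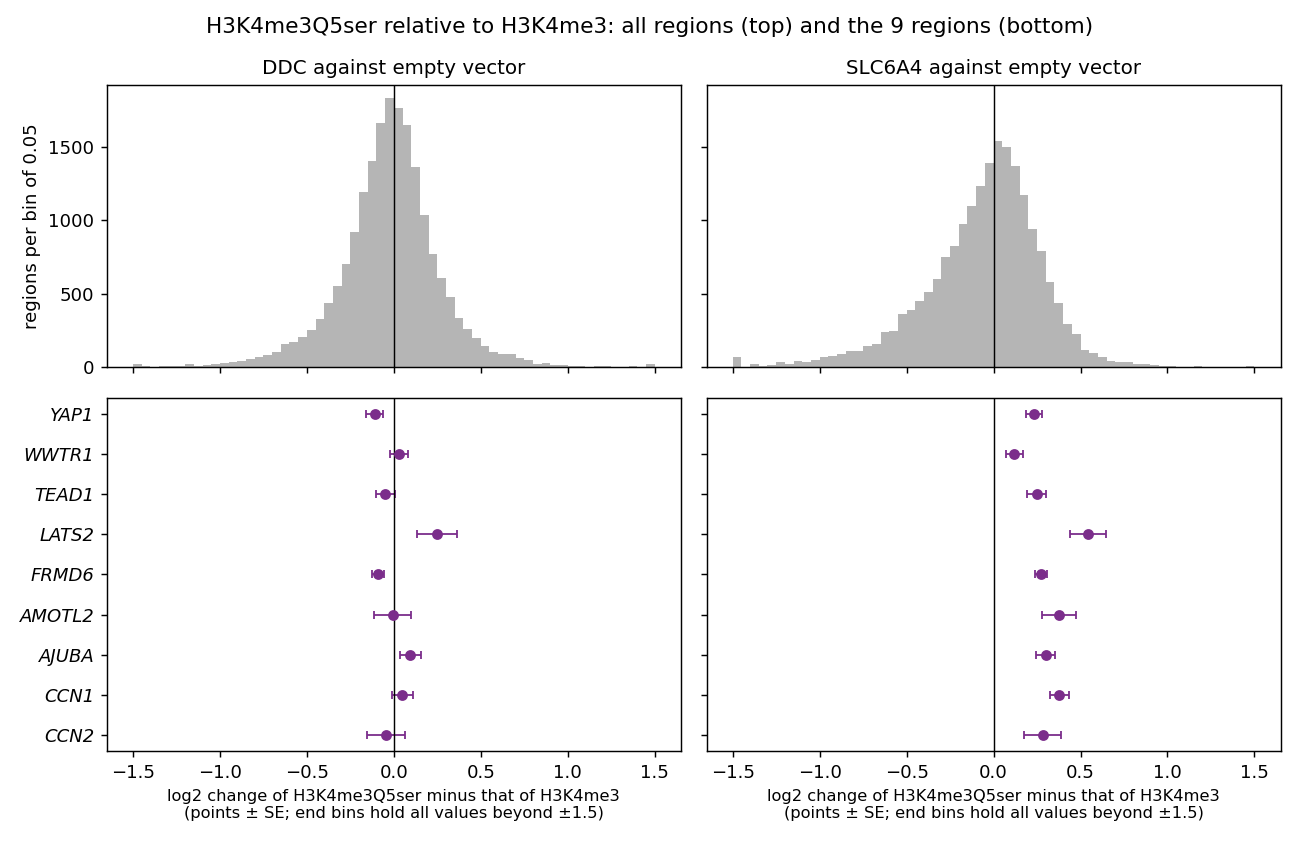
Change of H3K4me3Q5ser minus change of H3K4me3 (log2) in DDC cells (left) and SLC6A4 cells (right). Grey histograms hold all regions tested (bins of 0.05), and points are the 9 regions ± SE; all 9 points lie above 0 in SLC6A4 cells (0.12 to 0.54), and points lie on both sides of 0 in DDC cells.

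CUT&Tag, which cuts DNA beside a bound antibody, gave H3K4me3 CPM in 1 library each, with no replicate check and no test. Deposited values cover peaks that the authors did not list as up, and 6 members have such a peak within 1000 bp of the start. The longest WWTR1 peak (4731 bp) had 132 CPM in SLC6A4 cells, 125 CPM in SLC6A4 cells with the hairpin against TGM2, and 106 CPM in control cells. One FRMD6 peak (2263 bp) had 129 CPM in SLC6A4 cells, 121 CPM with the hairpin and 105 CPM in control cells, and its longer peak (3509 bp) had 82.4, 87.9 and 77.2 CPM in these 3 libraries. The AMOTL2 peak of 837 bp had 23.8 CPM in SLC6A4 cells, 20.9 CPM with the hairpin and 19.3 CPM in control cells. The peaks of a gene differed. Log2 ratios of SLC6A4 to control cells were 0.32 and 0.0082 at the longer and shorter WWTR1 peaks, 0.09 and 0.30 at the longer and shorter FRMD6 peaks, and 0.31, 0.16 and 0.09 at the AMOTL2 peaks of 837, 464 and 220 bp. Over all 13882 peaks the median was 0.10 and the 95th percentile 0.30, so these genes have peaks near both. YAP1 had 39.4 CPM in SLC6A4 cells, 35.9 CPM with the hairpin and 35.7 CPM in control cells, and AJUBA had 19.7, 19.5 and 17.5 CPM in these 3 libraries. The log2 ratio of SLC6A4 to control cells was 0.14 at YAP1 and 0.17 at AJUBA. In ChIP, H3K4me3 fell in SLC6A4 cells at the longer FRMD6 and YAP1 regions, where these CUT&Tag ratios were above 0. AMOTL2 and AJUBA were above 0 in both assays, and the CCN1 peaks with values were below 0 in both. Why the assays differ was not tested. The longer CCN1 peak (795 bp) had 4.16 CPM in SLC6A4 cells, 4.33 CPM with the hairpin and 4.24 CPM in control cells. The smaller CCN1 peak (255 bp) had 2.21, 3.32 and 4.24 CPM in these 3 libraries, all low values. With the hairpin, the log2 ratio to SLC6A4 cells was -0.08 and -0.15 at the longer and shorter WWTR1 peaks and 0.09 and -0.10 at the longer and shorter FRMD6 peaks. It was -0.19, -0.20 and 0.13 at the AMOTL2 peaks of 837, 464 and 220 bp, beside a median of -0.08 over all peaks. TEAD1, AJUBA and CCN1 each have 1 peak within 1000 bp on the authors' list of 2163 up peaks, for which no values were used here, and what that list was set against is not given in the sources used here.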

How the data were processed

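PC3 cells were measured by poly(A) RNA sequencing (9 libraries), ChIP (27) and CUT&Tag (11), and samples were grouped by the cell line and antibody in the labels. Reads were aligned to GRCh38, and HISAT2 2.1.0, Bowtie2, MACS2, HOMER and FastQC are named, per the submitters' processing notes. RNA values are signal: the authors deposited reads per gene divided by DESeq2 size factors, in a separate table for each line with the same empty-vector libraries. These values came out as whole multiples of 1 read in 100% of cases (tolerance 1e-06), so reads and RPKM were recovered and all 9 libraries set on a shared scale. ChIP values are estimated counts of read pairs over regions, deposited by the authors from featureCounts 2.0.3 per the file headers, and the 9.78% that were not whole were rounded. CUT&Tag values are CPM as deposited by the authors. The log2 fold changes, p-values and score columns the authors deposited were not used for the results. Peak lists give positions, and whether peaks were called on pooled samples is not given in the sources used here.

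RNA was fitted with limma 3.58.1 on log2(value + 1), keeping genes that reach 10 in 3 libraries or more. ChIP was fitted with edgeR 4.0.16, quasi-likelihood, TMM scaling. P-values are two-sided and adjusted over all genes or regions (Benjamini-Hochberg, threshold 0.05). The fits were checked on simulated data for recovery of planted changes and for false calls. The planted changes were larger than the ChIP changes and most of the members' RNA changes given here. R 4.3.3 and Python 3.11.15 were used. Regions were joined to a gene within 1000 bp of its start in GENCODE, which matched 62625 of 62703 identifiers; 20966 had no symbol. Alternatives were DESeq2 1.42.0, other scaling, pseudocount and filters, a replicate block, input and leaving out each library.

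The 10 genes and the pathway lists were chosen with earlier results of these data known. Named genes are all members, the overexpressed genes and TGM2, up to 4 called and at most 2 uncalled genes of each list, and the 3 nearest patterns to each target. ChIP CPM are relative to reads in regions, so a change common to all regions cannot be seen. SLC6A4 input was not analysed here.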

Additional observations from a re-analysis of the deposited data

Results flagged for a closer look

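All libraries of one line lay above, and all of the other line below, the shared empty-vector libraries for 4 measurements. FRMD6 RNA changed by -0.47 in DDC cells and by 1.1 in SLC6A4 cells on the log2 scale, a pattern found in 1.56% of 12939 genes. Set directly against each other, the lines differed by -1.58 (DDC minus SLC6A4, SE 0.11), past the limma threshold. FRMD6 was flagged for this pattern in the same RNA libraries, so that pass follows from the choice and is given as a description. H3K4me3Q5ser changed by -0.09 in DDC cells and by 0.14 in SLC6A4 cells at WWTR1, by -0.04 and by 0.45 at AJUBA, and by -0.1 and by 0.19 at CCN1, with DDC cells first in each pair. That pattern was found in 9.91% of all 19535 regions. The AJUBA value in DDC cells did not pass the edgeR test. Relative to input, the DDC values turned to 0.15 at WWTR1, 0.20 at AJUBA and 0.15 at CCN1. None of these passed (edgeR adjusted p = 0.355, adjusted p = 0.198 and adjusted p = 0.408). Input-relative values of SLC6A4 cells were not computed, so the lines cannot be compared on that scale. The difference between lines was not tested for these 3 regions. Groups of 3 libraries were too small for a check of single outlying libraries.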

How the results depend on the processing

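Of 983 values of single genes or regions under the alternatives, 896 kept direction and side of the threshold, 39 turned in sign, 39 were no longer past the threshold and 9 came to pass it, and 208 of 222 counts stayed within 1.5 times. DESeq2 gave ANKRD1 and LATS2 no adjusted p between the lines. With DESeq2, H3K4me3 in DDC cells had 1659 regions past the threshold, 1 of them a member's, in place of 3344 and 2. Library-size scaling gave 1 member past the threshold for the DDC interaction. Relative to input, signs turned in DDC cells for H3K4me3Q5ser at YAP1 (0.15), WWTR1 (0.15), TEAD1 (0.0895), AMOTL2 (0.059), AJUBA (0.20) and CCN1 (0.15), and for H3K4me3 at YAP1 (0.26), WWTR1 (0.12), TEAD1 (0.13), LATS2 (0.0531), FRMD6 (0.0097), AJUBA (0.10), CCN1 (0.0921) and CCN2 (0.0136). With DESeq2, AMOTL2 turned to 4.16e-05 for H3K4me3Q5ser, -0.0051 for H3K4me3 and 0.0035 for the interaction in DDC cells, and LATS2 to -0.014 for H3K4me3 in SLC6A4 cells. The cause was not tested.

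Leaving out 1 library at a time gave 1543 to 2088 genes and 1 to 2 members in the DDC comparison, 1929 to 2359 genes and 6 to 7 members in the SLC6A4 comparison, and 1243 to 1669 genes and 3 to 6 members between the lines, each with fewer samples. For H3K4me3Q5ser it gave 10903 to 11282 regions and 5 to 6 members in DDC cells, and 15645 to 15754 and 8 in SLC6A4 cells. For H3K4me3 it gave 2592 to 2756 and 1, and 10761 to 11016 and 5 to 7. Interactions ran from 2294 to 2874 regions and 0 to 1 members in DDC cells, and from 4755 to 5643 and 7 to 9 in SLC6A4 cells. Signs turned within -0.2484 to 0.118 for CCN2 RNA in DDC cells, -0.132 to 0.3625 for LATS2 RNA between the lines, -0.038 to 0.0272 (AMOTL2) and -0.0136 to 0.0954 (LATS2) for H3K4me3Q5ser in DDC cells, -0.0453 to 0.0834 (AMOTL2) for H3K4me3 in DDC cells, -0.0421 to 0.047 (LATS2) and -0.0122 to 0.0355 (WWTR1) for H3K4me3 in SLC6A4 cells, and -0.0838 to 0.0483 (AMOTL2) and -0.1162 to 0.0207 (CCN2) for the DDC interaction.

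Library-size scaling moved the median of all genes to -0.12 in DDC cells, with 592 genes higher and 1800 lower in place of 1175 and 1106, and 570 and 1423 between DDC and SLC6A4 cells in place of 876 and 913. DESeq2 gave 3279 regions higher and 2048 lower for the SLC6A4 interaction. Replicate numbers did not pair the libraries (correlations -0.13 to 0.03), and a replicate block gave 2369, 2497 and 1720 genes for DDC, SLC6A4 and their difference, 11909 and 16083 regions for H3K4me3Q5ser, 3339 and 11662 for H3K4me3, and 2908 and 5662 for the interactions, DDC first. The block changed no count of members. Input-relative changes in SLC6A4 cells were not run. Within 5000 bp of the start, H3K4me3 peaks were found for 9 members in place of 8 and CUT&Tag values for 7 in place of 6.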
